A study of Mus musculus with 6 samples.

Results

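The maternal and the paternal allele were compared within Abl.4, a clonal line of immortalised mouse B cells. The genes described were all autosomal genes with at least 20 allelic counts, both alleles summed, in each of the 2 Abl.4 libraries. They numbered 9118 of the 18663 autosomal genes, and of the 19402 genes in all, of the allele table. Of the 9545 autosomal genes left out, 6581 had no allelic count in either Abl.4 library. At the limit, 36 genes with 20 counts in their lower library had a median maternal share of 0.484, and 41 genes with 19 counts, just outside, had 0.441. The maternal share is the maternal count divided by the counts of both alleles.

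The series examined monoallelic expression in 3 clonal lines of immortalised B cells, Abl.2, Abl.3 and Abl.4, all from F1 animals of a 129S1/SvImJ x CAST/EiJ cross. By the labels Abl.4 is female, as is Abl.2, while Abl.3 is male. Every line was grown under control conditions with 1% DMSO, a solvent, and live cells were collected on day 2 after density gradient centrifugation. Each line has 2 RNA libraries, made with a SMART-seq kit and labelled as library preparation replicates. All p-values therefore measure only the spread between libraries of single clones, which may be technical. The kit has no molecular identifiers, so reads are not independent molecules, and limits based on counts cover counting error only. Abl.4 had 20005324 and 20004393 allelic counts in its replicates 1 and 2. The genes described had a median of 851.5 and 900.5 allelic counts (quartiles 264.25 to 2253.5 and 277 to 2293).

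An F1 cell carries a copy of each autosomal gene from either parent, and where the strains differ in sequence, reads from the copies can be told apart. Unequal output is known from several sources: inherited sequence differences between the strains, which act alike in every cell; genomic imprinting, which silences a gene according to the parent it came from; and clonally kept choices, in which a cell and its descendants read mainly one copy while other clones read the other copy or both. The lines come from the B lineage, in which early precursors rearrange their immunoglobulin genes and pair the heavy chain with a surrogate light chain in the pre-B cell receptor.

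The labelled cell type was checked against defining markers. The 8 B cell markers, among them Cd79a, Cd79b, Pax5, Ebf1, Vpreb1, Igll1 and Cd72, summed to 12921 and 12929 TPM (abundance scaled for depth and transcript length) in the Abl.4 libraries, with none below 1 TPM. Vpreb1 and Igll1, which encode the surrogate light chain, were at 2277 and 2234 TPM and at 3755 and 3731 TPM. The 10 T cell markers summed to 2.3 and 3.56 TPM, with 7 listed at 0 in both libraries, Cd3e, Cd4 and Cd8a among them. The erythroid markers summed to 1.77 and 2.03 TPM with 3 of 8 at 0, and the NK cell markers to 5.64 and 6.83 TPM with 4 of 6 at 0. The 10 myeloid markers summed to 92.9 and 80.6 TPM, of which Lyz2 gave 82.45 and 70.84, while 4 were at 0. The 6 plasma cell markers summed to 164 and 168 TPM with 1 at 0; Irf4 and Xbp1, which B cells also express, made up most of that sum.

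Promoter sequence is shown for 4 genes because promoter CG content differed between biased and balanced genes, as described further on. Capitals mark each CG dinucleotide, which reads the same on either strand; the sequences are the 250 bases before the RefSeq start (GRCm38.p6), written 5′ to 3′ on the strand of the gene, and the genes were chosen after their values were seen. Xrcc5, at chr1:72307171-72307420 on the plus strand, was read almost wholly from the paternal allele in Abl.4 and from both alleles in the other lines. Kcnk2, at chr1:189402274-189402523 on the minus strand, and Rgs16, at chr1:153740103-153740352 on the plus strand, were read from the paternal allele in all 3 lines. Irf8, at chr8:120736108-120736357 on the plus strand, was read from both alleles, though more from the maternal one (log2 ratio 0.90 in Abl.4). The stretches of Xrcc5 and Kcnk2 hold 5 CG dinucleotides each, that of Rgs16 holds 17 and that of Irf8 holds 29. The RefSeq start of Rgs16 lies 4 bases from the start in the allele table.
Xrcc5: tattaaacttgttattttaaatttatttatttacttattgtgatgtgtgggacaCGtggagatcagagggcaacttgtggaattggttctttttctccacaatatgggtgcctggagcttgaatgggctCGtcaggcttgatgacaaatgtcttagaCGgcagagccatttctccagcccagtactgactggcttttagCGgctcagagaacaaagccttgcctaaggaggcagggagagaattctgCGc
Kcnk2: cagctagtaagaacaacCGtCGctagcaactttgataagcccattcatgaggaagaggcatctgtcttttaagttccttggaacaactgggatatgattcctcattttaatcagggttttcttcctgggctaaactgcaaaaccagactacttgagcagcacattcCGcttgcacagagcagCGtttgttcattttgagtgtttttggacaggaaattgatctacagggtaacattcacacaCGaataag
Rgs16: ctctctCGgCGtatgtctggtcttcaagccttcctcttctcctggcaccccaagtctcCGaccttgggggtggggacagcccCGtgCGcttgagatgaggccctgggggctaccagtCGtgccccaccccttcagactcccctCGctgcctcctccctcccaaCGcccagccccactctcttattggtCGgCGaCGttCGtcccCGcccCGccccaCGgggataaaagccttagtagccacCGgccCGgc
Irf8: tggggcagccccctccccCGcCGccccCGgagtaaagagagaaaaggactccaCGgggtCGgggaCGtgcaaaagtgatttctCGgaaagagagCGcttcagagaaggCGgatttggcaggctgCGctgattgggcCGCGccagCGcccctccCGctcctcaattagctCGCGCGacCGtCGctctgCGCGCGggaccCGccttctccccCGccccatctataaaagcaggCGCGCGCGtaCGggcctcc

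Across the autosomal genes of Abl.4, output was centred on equal alleles. The median maternal share was 0.50 in replicate 1 and 0.502 in replicate 2, and maternal counts made up 50.42% and 50.41% of all counts of these genes. In the quasi-likelihood test of edgeR, with p-values adjusted by Benjamini and Hochberg's method across autosomal and X genes at 0.05, 3528 of 9118 genes (38.7%) had unequal alleles. The maternal allele was higher for 1816 (19.9%) and the paternal allele for 1712 (18.8%). With the null set at the autosomal allele totals instead of equality, the larger side turned, to 1705 maternal and 1841 paternal calls. In none of the 3528 did the libraries lie on opposite sides of 0.5. The median size of the log2 ratio between alleles was 0.71 among maternal calls and 0.72 among paternal calls, and 678 genes in each direction differed at least 2-fold. Among the 3676 genes that overlap no other annotated gene and carry no predicted or pseudogene name, 1515 (41.2%) were called with p-values adjusted over that subset, a share near that of all genes. Whether the authors' counting used the strand is not given in the sources used here, so reads of overlapping genes cannot be told apart.

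**Figure D1:**
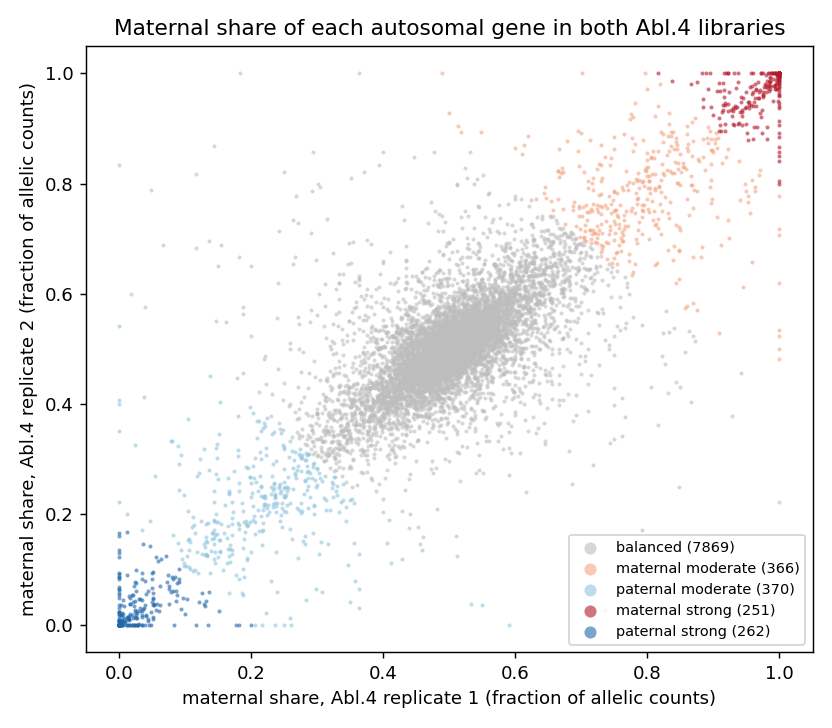
Maternal share (fraction of allelic counts) of each autosomal gene in Abl.4 replicate 1 (x axis) and replicate 2 (y axis), 1 point per gene, coloured by the class of its mean share. Most of the 9118 points form a cloud around 0.5 on both axes, and the strongly biased genes gather in the corners, 262 at the paternal and 251 at the maternal end.

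The plot of replicate shares shows how closely the libraries matched. The median absolute difference in share between them was 0.0311. For 333 genes it was at least 0.2, and 265 of these had fewer than 100 counts in a library. Where the share was from 0.1 to 0.9, replicates differed 2.33 times as much as binomial counting gives, a spread that the test takes in. The authors' deposited table holds an allelic estimate for 8592 of the genes. Its interval excluded 0.5 for 1792, of which 1789 were also called by edgeR, all on the same side. Another 1601 genes called by edgeR had an interval in the authors' deposited table that included 0.5.

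By mean share, 7869 genes (86.3%) were balanced, from 0.3 to 0.7, and 2389 of these still passed the test, with a median log2 ratio of 0.50 in size; 217 of the 2389 differed at least 2-fold. Strong bias, a share of at most 0.1 or at least 0.9, was seen in 513 genes (5.63%), of which 251 favoured the maternal (2.75%) and 262 the paternal allele (2.87%). Moderate bias was maternal in 366 genes and paternal in 370. Of the 513, 460 passed the limit in both libraries, 2 did not pass the edgeR test, and 118 had no count of the other allele in either library, 56 of them maternal and 62 paternal. Strong bias was commonest among thinly covered genes: it was found in 15.7% of genes with 20 to 100 counts in their lower library and in 1.36% of those with 2000 or more. Calls ran the other way, from 29.1% to 51.8% over the same range.

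Among strongly maternal genes, the rule for naming genes took the 8 with the smallest p-values. Nfatc3 (chr8:106058840-106130537, plus strand; coordinates of the deposited table, which match GRCm38) encodes a calcium-regulated transcription factor used downstream of antigen receptors. It had 3456 maternal and 13 paternal counts in replicate 1 and 4061 and 23 in replicate 2. Both libraries lay close to 1, at a mean share of 0.995 ± 0.00133 (SD, n = 2), and the log2 ratio was 7.70 (SE 0.12, edgeR adjusted p = 9.95e-12). Its shares in Abl.2 and Abl.3 were 0.995 and 0.993, so it was maternal in every line. Coro2a, which encodes an actin-binding coronin, had 6189 maternal and 227 paternal counts, then 6062 and 179, a share of 0.968 ± 0.00474 (SD, n = 2). It lies on chromosome 4, on which Abl.2 had a median share of 0.998. H1f0 (chr15:79028450-79030504, plus strand), a linker histone found in cells that leave the cycle, had 4083 maternal and 15 paternal counts and then 3404 and 5. Its share in Abl.4 was 0.997, against 0.0467 in Abl.2 and 0.702 in Abl.3. Its abundance was 138.6 and 124.18 TPM in Abl.4, 2.99 and 2.54 in Abl.2 and 33.42 and 34.96 in Abl.3. H1f0 was thus highest in the line with the highest maternal share.

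Tmem119, a membrane protein best known as a microglial marker, was at a share of 0.926 ± 0.00392 (SD, n = 2) on at least 7353 counts per library. Its abundance was 123.86 and 104.63 TPM in Abl.4 and between 6.24 and 8.33 TPM in the 4 other libraries. Of the 8, the histone genes Hist1h2ac and Hist1h2ao and the enolase gene Eno1b belong to multicopy families whose reads can be split between near-identical copies, and their values are uncertain. Hist1h2ac and Hist1h2ao, both H2A genes, had shares of 0.986 and 1.00. Hist1h2ac had 18954 maternal and 285 paternal counts in replicate 1 at an abundance of 4.95 TPM, and Hist1h2ao 7945 and 1 counts at 0 TPM. Eno1b, a near copy of Eno1, was at 0.931 while Eno1 itself was at 0.529.

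Among strongly paternal genes, Enpep (chr3:129269175-129332720, minus strand) had the smallest p-value after Serinc3. It encodes the aminopeptidase known as BP-1, a surface marker of pre-B cells. It had 190 maternal and 19046 paternal counts in replicate 1 and 155 and 18535 in replicate 2, a share of 0.00909 ± 0.00112 (SD, n = 2). The log2 ratio was -6.77 (SE 0.07, edgeR adjusted p = 9.64e-13), and the shares in Abl.2 and Abl.3 were lower still, at 0.000853 and 0.00177. Serinc3, a multipass membrane protein that restricts retroviruses, had 1308 maternal and 24587 paternal counts and then 1508 and 30036. At 951.36 and 1077 TPM it was the most abundant of the 8. Its share of 0.0492 ± 0.00191 (SD, n = 2) was near those of Abl.2 (0.0403) and Abl.3 (0.0536).

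Rgs16, which shortens signals of G protein-coupled receptors, had 14 maternal and 4570 paternal counts and then 10 and 4659. Kcnk2, a potassium channel, had 4 and 2386 and then 3 and 2398. Their shares were 0.00260 and 0.00146 in Abl.4, 0.00133 and 0.000803 in Abl.2 and 0.00221 and 0.00174 in Abl.3, so that both genes were almost wholly paternal throughout. Their promoters are printed above. Wnt10a, a secreted Wnt ligand, was at 0.0187 ± 0.00181 (SD, n = 2) in Abl.4, with 0.0123 in Abl.2 and 0.00502 in Abl.3.

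The 3 other strongly paternal genes named by the rule were moderately rather than strongly paternal in 1 of the other lines. Ttc3, a ubiquitin ligase, had 19 maternal and 2592 paternal counts and then 13 and 2907 in Abl.4, a share of 0.00586, against 0.165 in Abl.3. S100a11, a calcium-binding protein, had 3 maternal counts in each library against 1443 and 1464 paternal counts, a share of 0.00206, against 0.199 in Abl.3. Plxdc2, a membrane protein with a plexin-like domain, had 2 and 4197 counts and then 13 and 3777, a share of 0.00195, against 0.293 in Abl.2. Each of these differences passed the edgeR test (adjusted p = 7.22e-09, 4.93e-09 and 1.23e-09).

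**Figure D2:**
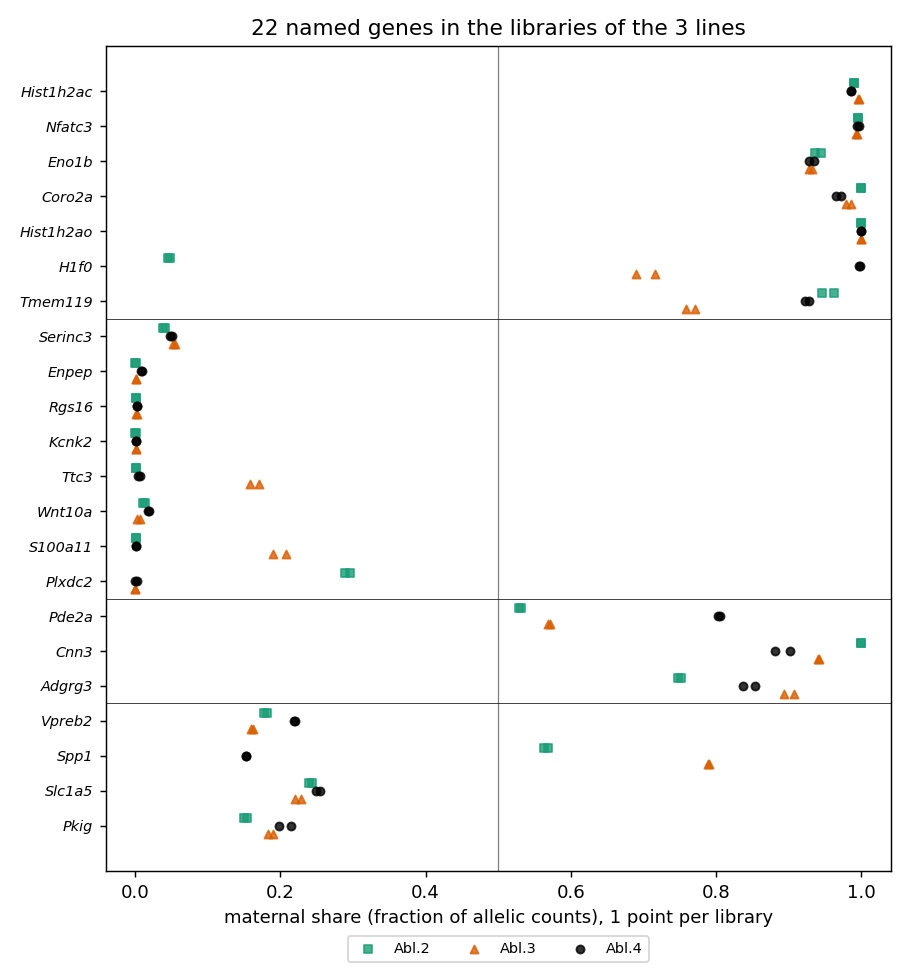
Maternal share (fraction of allelic counts, x axis) of 22 genes named by rank of p-value, 1 point per library, with Abl.4 in black, Abl.2 in green squares and Abl.3 in orange triangles; the lines across separate strongly maternal, strongly paternal, moderately maternal and moderately paternal genes. The pairs of Abl.4 points lie on top of each other or close together, while the other lines sit far away for H1f0, Pde2a and Spp1.

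Moderately biased genes kept clear output from both alleles. Spp1 (chr5:104435118-104441050, plus strand) encodes osteopontin, a secreted adhesion protein. It had 1313 maternal and 7283 paternal counts and then 1233 and 6836, a share of 0.153 in each Abl.4 library. The line Abl.2 was at 0.566 and Abl.3 at 0.790, so that Abl.4 alone favoured the paternal allele (edgeR adjusted p = 8.26e-12 and 1.37e-12 for the differences). Vpreb2, a surrogate light chain gene, had 7768 maternal and 27580 paternal counts and then 7436 and 26535. Its share was 0.219 ± 0.000612 (SD, n = 2), with 0.180 and 0.161 in Abl.2 and Abl.3. How reads were split between Vpreb2 and its relative Vpreb1 is not known. Slc1a5, a glutamine transporter, was at 0.252 and Pkig, an inhibitor of protein kinase A, at 0.206, against 0.242 and 0.224, and 0.152 and 0.187, in Abl.2 and Abl.3.

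On the maternal side, Pde2a, which breaks down cyclic nucleotides, had 41321 maternal and 10194 paternal counts and then 37931 and 9140. Its share was 0.804 ± 0.00262 (SD, n = 2) in Abl.4 and 0.530 and 0.570 in Abl.2 and Abl.3. An overlapping predicted gene has the same counts, and Pde2a has no abundance value in the TPM table used here. Cnn3, an actin-binding calponin, was at 0.891 and Adgrg3, an adhesion receptor, at 0.845. The balanced genes with most counts were glycolytic: Eno1 with shares of 0.527 and 0.531 and Pkm, pyruvate kinase, with 0.571 and 0.563. Both passed the test (edgeR adjusted p = 0.000297 and 2.07e-07), at ratios of 1.12 and 1.31 between the alleles; the call of Eno1 was lost without pairing the alleles of a library.

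Gene groups are given next by role, each beside the background of 19.9% maternal and 18.8% paternal calls over all genes. Over all genes, 86.3% were balanced and 5.63% strongly biased. Calls rose with coverage, from 29.1% at 20 to 100 counts to 51.8% at 2000 or more. The groups were not matched to the background for coverage. Of 22 measured B-lineage transcription factors, 11 were called maternal and 6 paternal, with a median share of 0.533, and 20 were balanced. The maternal call of Irf4 was lost when either Abl.4 library was left out, without pairing the alleles of a library and with the null at the allele totals. Ebf1, a factor that sets B cell identity, had 2586 maternal and 4153 paternal counts and then 2525 and 4018, a share of 0.385. Irf8 was at 0.652 and 0.651 in the libraries and was called maternal. Ikzf3, which encodes Aiolos, had a share of 0.712 against 0.943 in Abl.2 and 0.614 in Abl.3. Erg was the 1 strongly biased factor, with 107 maternal and 2 paternal counts and then 97 and 13, at 3.54 and 3.07 TPM. Pax5, the factor that keeps cells in the B lineage, had shares of 0.467 and 0.515 and was not called (edgeR adjusted p = 0.85).

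Of 14 genes of the pre-B cell receptor and of V(D)J recombination, 3 were called maternal and 7 paternal. Xrcc5 (chr1:72307421-72394952, plus strand), the large Ku subunit that binds broken DNA ends, overlaps no other annotated gene. It had 3 maternal and 1011 paternal counts in replicate 1 and 3 and 1056 in replicate 2. Its share of 0.00290 stood against 0.60 in Abl.2 and 0.666 in Abl.3, and the log2 ratio differed by -8.96 and -9.36 (edgeR adjusted p = 1.3e-10 and 2.09e-10). Its partner Xrcc6 was at 0.539, so the Ku subunits were unlike in Abl.4. Lig4, the ligase of the same repair route, was at 0.791 ± 0.0402 (SD, n = 2) on 294 and 253 counts. Igll1 was at 0.366, Vpreb1 at 0.480, Rag1 at 0.424 and Rag2 at 0.564. The call of Rag2 (edgeR adjusted p = 0.0321) was lost without Abl.4 replicate 2 (a fit in which the remaining Abl.4 library is assumed to vary like those of the other lines), in a fit of the Abl.4 libraries alone, in the binomial test and without pairing the alleles of a library.

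Among 27 surface molecules of B cells and progenitors, 11 were called maternal and 8 paternal, with a median share of 0.520. Cd48, a partner of signalling lymphocyte receptors, had 1 maternal and 236 paternal counts and then 0 and 253. Bst1, an ectoenzyme of stromal and B precursor cells, was at 0.149. On the other side, Cd52, a small glycoprotein of lymphocytes, was at 0.924 with 2125 maternal and 200 paternal counts and then 2808 and 201. Cd72, an inhibitory co-receptor, was at 0.748. The parts of the B cell receptor complex were near equality, with Cd79a at 0.455 and Cd79b at 0.510.

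Of 19 genes of B cell receptor signalling, 7 were called maternal and 6 paternal, and 16 were balanced. The exceptions were Nfatc3, Vav3 and Rasgrp3. Vav3, a guanine nucleotide exchange factor, had 1 maternal count in each library against 374 and 481 paternal counts, a share of 0.00237, with 0.0999 in Abl.2 and 0.00392 in Abl.3. Its relative Vav1 was at 0.50 and Vav2 at 0.445. Rasgrp3 had no maternal count against 45 paternal counts in replicate 1 and 6 against 43 in replicate 2, at 0.24 and 0.19 TPM. Of 21 genes of Abl, cytokine receptor and JAK-STAT signalling, 2 were called maternal and 6 paternal. Il7r, the receptor chain on which B precursors depend, was at 0.694, and the feedback gene Socs2 at 0.346.

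**Figure D3:**
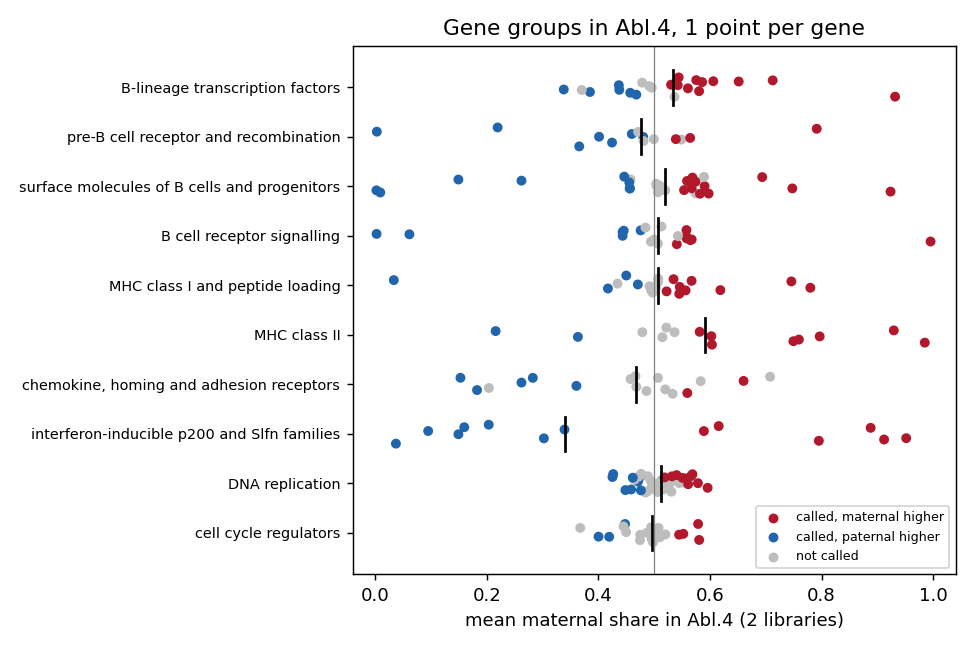
Mean maternal share in Abl.4 (fraction of allelic counts, mean of 2 libraries, x axis) of the genes of 10 groups, 1 point per gene, coloured by the edgeR call; the black bars are group medians. Cell cycle and DNA replication genes lie close around 0.5, whereas the p200 and Slfn families reach towards both ends and the MHC class II group towards the maternal end.

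Genes of antigen presentation spread widely in the plot of gene groups. Of 14 MHC class II genes, 8 were called maternal and 2 paternal, with a median share of 0.592. Of the paternal calls, that of H2-DMa was lost without Abl.4 replicate 2. H2-Ab1 (chr17:34263209-34269418, plus strand), which encodes a chain of the class II molecule, had 33476 maternal and 520 paternal counts and then 31920 and 481, a share of 0.985. Its partner H2-Aa was at 0.479 and was not called, and H2-Eb1, on 87 and 150 counts, had shares of 0.609 and 0.420 and was not called either. H2-Oa, H2-DMb1 and H2-Ob, which take part in the loading of peptides onto class II molecules, were at 0.749, 0.759 and 0.797. Ciita, the master activator of class II genes, was at 0.216 on 373 and 405 counts. In Abl.2, H2-Ab1 had 158 and 118 counts, with shares of 0.386 and 0.847 in its libraries, so no comparison with Abl.2 is drawn for it. Of 20 MHC class I and peptide loading genes, 9 were called maternal and 4 paternal; H2-Q4 was at 0.0333, H2-Q6 at 0.746, H2-D1 at 0.619 and H2-K1 at 0.522. The class I genes are close copies of each other and highly polymorphic, so reads may be assigned to the wrong gene or allele. How reads over differences between the alleles were counted is not given in the sources used here, which limits the share of H2-Ab1 as well.

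The interferon-inducible p200 and Slfn genes, which lie in clusters on chromosomes 1 and 11, were all called: 6 of 13 maternal and 7 paternal, with a median share of 0.339. Ifi206 had 27 maternal and 1256 paternal counts and then 72 and 1285, a share of 0.0371. Ifi208 was at 0.160 and Ifi203, in the same cluster, at 0.589; the call of Ifi203 was lost without pairing the alleles of a library. Ifi204 had 21 maternal and 1 paternal counts and then 37 and 2. In the Slfn cluster, Slfn8 was at 0.203 and Slfn9 at 0.888. These families also hold near-identical copies, and how reads were split between them is not known. Of 22 other interferon response genes, 4 were called maternal and 3 paternal; Oas1a, an RNA sensor, had 218 maternal and 1 paternal counts and then 207 and 6.

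Of 17 chemokine, homing and adhesion genes, 2 were called maternal and 5 paternal, and the paternal ones included the exit receptor S1pr1 at 0.182 and Cxcr4, the receptor that holds precursors in the marrow, at 0.361. The maternal call of Ccr7 was lost with DESeq2 and when either Abl.4 library was left out. All 23 Toll-like receptor and NF-kB genes, all 23 cell cycle regulators and all 37 DNA replication genes were balanced, as were 86.3% of all genes. Within those groups 7 and 3, 4 and 3, and 10 and 8 genes were called maternal and paternal; the call of Unc93b1, in the first group, was lost without pairing the alleles. The range of shares was 0.425 to 0.596 among replication genes, for example 0.561 for Pcna, the sliding clamp, and 0.596 for Pold2, a polymerase subunit. Of 16 p53 and Arf genes, 6 were called maternal and 2 paternal; Cdkn1a, the p21 inhibitor, was at 0.643. Of 13 BCL2 family genes, 3 were called each way. Bok, a pro-death member, had 473 maternal and 15 paternal counts and then 405 and 14, a share of 0.968, with 0.997 in Abl.2 and 1.00 in Abl.3. Bak1, a further pro-death member, was at 0.160.

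Of 12 DNA methylation genes, 3 were called in each direction. Among the paternal calls, that of Tdg was lost without either Abl.4 library, and that of Mbd3 without replicate 2 and without pairing the alleles. Uhrf1, which brings the maintenance methylase to DNA, was at 0.570, and Zbtb38, a reader of methylated DNA, at 0.924, with 702 maternal and 46 paternal counts and then 598 and 59. Of 19 Polycomb and Trithorax genes, 2 were called maternal and 7 paternal, with a median share of 0.451. The histone methylase Ezh2 was at 0.423 and Cbx7 at 0.168. Of 16 glutathione and drug metabolism genes, 5 were called each way, with Mgst2 at 0.961 and Gclm, a subunit of the enzyme that starts glutathione synthesis, at 0.129. Of 22 cholesterol synthesis genes, 6 were called maternal and 5 paternal; Insig1, a brake on the pathway, was at 0.251. Of 13 glycolysis genes, 3 were called maternal and 4 paternal, and of 8 Gimap GTPases 3 and 2. Of the Gimap calls, that of Gimap4 was lost with DESeq2, without Abl.4 replicate 1 and without pairing the alleles, those of Gimap3 and Gimap9 without replicate 2, and that of Gimap6 without pairing.

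The large housekeeping families had shares of calls near the background. Of 66 cytosolic ribosomal protein genes, 15 were called maternal and 12 paternal with a median share of 0.50; Rpsa was at 0.571 and Rpl29 at 0.368. The group was drawn by gene name and so also held Rps6kl1, a kinase-like gene, with no maternal count against 53 and 37 paternal counts. Of 66 mitochondrial ribosomal protein genes, 15 and 11 were called, of 57 respiratory chain genes 10 and 11, and of 41 proteasome genes 8 and 5. The call of Mrps15 was lost with DESeq2, and that of Ndufb8 without pairing the alleles. Cox7a2l, which joins respiratory complexes, was an exception at 0.939, and was at 0.912 and 0.924 in the other lines. Of 219 genes named Zfp, 36 were called maternal and 40 paternal, and 17 were strongly biased, where 5.63% of all genes were. Zfp518a had a share of 0.944, against 0.0247 in Abl.2 and 0.426 in Abl.3, and Zfp251 had no maternal count against 265 and 246 paternal counts. Taking 3 counts over both libraries as the floor, the paternal count of Zfp251 was at least 170-fold higher. Of 155 solute carriers, 39 were called maternal and 36 paternal, 48.4% against 38.7% of all genes. Strong bias was seen in 14 of the 155, against 5.63% of all genes.

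Of 52 genes listed as imprinted, 14 passed the coverage minimum; 2 were called maternal and 5 paternal. Igf2r, known to be read from the maternal copy, had 203 maternal and 3 paternal counts and then 270 and 8. Impact and Zrsr1, both known to be read from the paternal copy, were at 0.137 and 0.0192. Grb10, whose expressed parental copy is known to depend on the tissue, had 0 and 107 and then 2 and 83 maternal and paternal counts in Abl.4. In Abl.3 it had 98 and 100 maternal counts and no paternal count, and the difference passed the edgeR test (adjusted p = 6.25e-05). The remaining called genes, Tssc4 at 0.679, Cd81 at 0.446 and H13 at 0.468, were balanced. The call of H13 was lost without Abl.4 replicate 1 and without pairing the alleles of a library. Commd1, the host gene of Zrsr1, was not called at 0.388 (edgeR adjusted p = 0.591), nor were Trappc9, Blcap, Copg2, Herc3, Ube3a and Inpp5f, at shares from 0.446 to 0.541.

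Along the genome, Abl.4 had no autosome shifted as a whole. The median share ran from 0.490 on chromosome 16 to 0.511 on chromosome 13. Chromosome 13 had 94 maternal and 53 paternal calls, and chromosome 3 had 73 and 100. Strong bias was found in 9.90% of the genes of chromosome 3, 12 maternal and 29 paternal, in 8.67% of those of chromosome 17 and in 3.36% of those of chromosome 16. On X, for comparison, 250 of 252 genes (99.2%) were called paternal, and X genes without Xist drew 1.41% and 1.57% of their counts from the maternal allele.

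Strongly biased genes were sometimes neighbours. Of the 513, 44 (8.58%) had a nearest non-overlapping gene with strong bias to the same side and 4 (0.780%) to the opposite side; among 8598 other genes, 424 (4.93%) had a strongly biased nearest gene. There were 4 runs of at least 3 such genes in a row, all of them paternal. On chromosome 11, from 87755577 to 87863803, lay Mir142hg, Tspoap1 and Mks1. On chromosome 16, from 94128882 to 94469343, lay Hlcs, Pigp and Ttc3. On chromosome 4, from 57568179 to 58553898, lay Pakap, Akap2, D630039A03Rik and Lpar1, of which Pakap and Akap2 overlap and share reads. The run on chromosome 3, from 96220361 to 96248509, held the histone genes Hist2h2ac, Hist2h3c2 and Hist2h3c1, which are multicopy.

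Tspoap1, an adaptor of neurotransmitter release, had 104 maternal and 1906 paternal counts and then 108 and 1784, a share of 0.0544 against 0.403 in Abl.2 and 0.390 in Abl.3. Mks1, a ciliary protein, had 11 and 245 and then 1 and 158. In Abl.3 Mks1 had 156 and 159 maternal counts against 4 and 0 paternal counts. Mir142hg rested on 22 and 21 counts in all. The genes of this run therefore shared a side in Abl.4 but not in Abl.3.

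**Figure D4:**
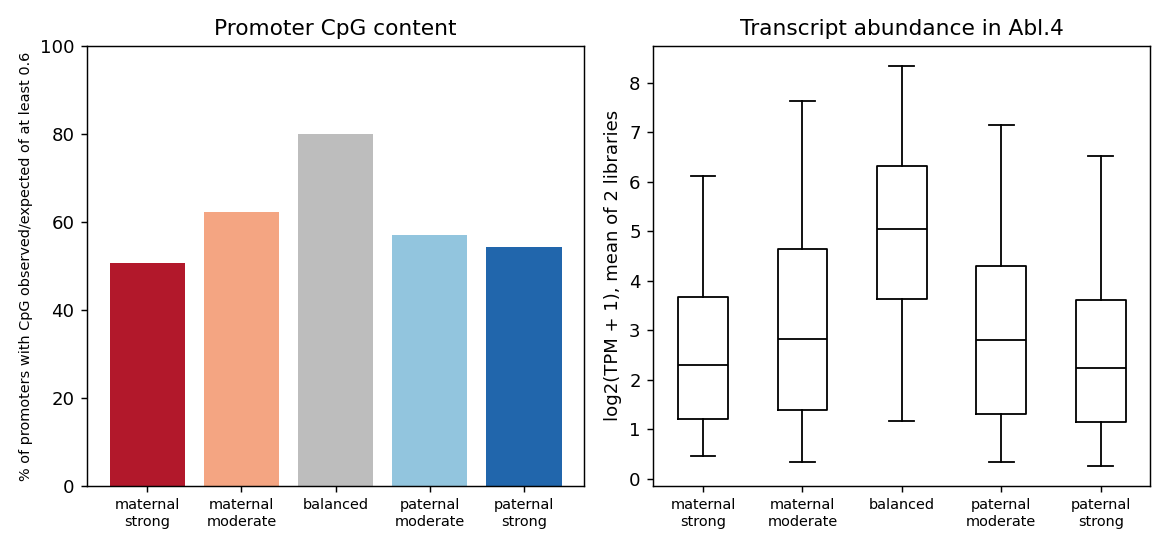
Left, percent of promoters with a CpG observed over expected ratio of at least 0.6 in each class of Abl.4 genes; right, abundance of the same classes as log2(TPM + 1), with boxes for quartiles, a bar for the median and whiskers for the 5th and 95th percentiles. The balanced class stands highest in both panels, at 80.1% and a median of 32.1 TPM.

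Promoter CG content, which the choice of genes did not use, was unlike between biased and balanced genes; it is given as a description, with no test. RefSeq promoters of 300 bases, 250 before and 50 after the start, were matched for 7087 of the 9118 genes. CG dinucleotides were searched, and 99.5% of the matched promoters held at least 1. The ratio of observed to expected CG, which is high in CpG islands, was at least 0.6 for 80.1% of balanced promoters (4934 of 6161), 50.6% of strongly maternal ones (89 of 176) and 54.4% of strongly paternal ones (106 of 195). Over all matched genes it was 77.0%. The moderate classes lay between, at 62.3% and 56.9%. Of the promoters printed above, Irf8 had 38 CG dinucleotides in the 300 bases at a ratio of 1.03, Rgs16 had 22 at 0.719, Xrcc5 had 9 at 0.527 and Kcnk2 had 6 at 0.435. The CG content is a description of sequence; methylation was not analysed here.

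Strongly biased genes were also less abundant, as the boxes beside the promoter bars show; abundance is tied to allelic counts, on which the coverage minimum was set. Median abundance was 3.94 TPM for strongly maternal and 3.69 TPM for strongly paternal genes, against 32.1 TPM for balanced genes, with 6.11 and 5.95 TPM for the moderate classes. Median allelic counts per library followed, at 186.5, 161.75 and 1051.5 for the strongly maternal, strongly paternal and balanced genes. Depth and bias moved together in this way, and the part of depth in the share of biased genes was not tested. Among all genes, 80.1% of balanced and 52.6% of strongly biased promoters reached the CG ratio of 0.6. Among genes with at least 500 counts per library, a limit chosen after the data were seen, it was 83.4% and 57.1%. The TPM table gives no depth, so the precision of low TPM values is unknown.

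Abl.4 was then set against the other lines, gene by gene, by the edgeR test of the difference between log2 allele ratios. Against Abl.2, 2029 of 8974 genes (22.6%) differed, 874 with a higher maternal share in Abl.4 (9.74%) and 1155 with a lower one (12.9%). In Abl.2 the median share was 0.998 on chromosome 4 and 0.337 on chromosome 10, where 563 of 580 and 359 of 460 genes differed from Abl.4. On the other chromosomes 1107 of 7934 genes (14.0%) differed, and 973 when p-values were adjusted over the genes of those chromosomes alone. Against Abl.3, 1311 of 8995 genes (14.6%) differed, 738 with a higher share (8.2%) and 573 with a lower one (6.37%). Without pairing the alleles of a library, 843 genes differed from Abl.3. These differences from Abl.3 were most frequent on chromosome 5 (30.2% of its genes), 18 (24.4%), 17 (24.2%) and 1 (23.8%), where the median share of Abl.3 was 0.451, 0.458, 0.549 and 0.448. Both comparisons use the same Abl.4 libraries.

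Of the 513 strongly biased genes, 312 had at least 20 counts in every library of the other lines, and 201 did not. Of the 312, 149 were strongly biased to the same side in all 3 lines, 74 maternal and 75 paternal. Nfatc3, Coro2a, Enpep, Rgs16, Kcnk2, Serinc3 and Wnt10a were among these. How reads over strain differences were counted is not given in the sources used here, and its part in these shared sides was not tested. A further 27 genes were strongly biased to the opposite side in Abl.2 or Abl.3, H1f0 and Mks1 among them. On chromosomes 4 and 10 the median share of Abl.2 was 0.998 and 0.337. Outside these chromosomes, 138 of 288 genes shared the side in all 3 lines (69 each way) and 25 were opposite. Lastly, 31 genes were balanced in both other lines, 8 of them maternal and 23 paternal in Abl.4. The difference from Abl.2 passed the test for 28 of the 31, and so did the difference from Abl.3 for 28; as the genes were picked by these shares, the counts are descriptive.

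Several of the 31 had few counts of the lower allele in Abl.4. Kif16b, a kinesin that moves endosomes, had 785 maternal and 3 paternal counts and then 620 and 1, with shares of 0.489 and 0.515 in Abl.2 and Abl.3. Ercc6, a factor of transcription-coupled repair, had no maternal count against 516 paternal counts and then 1 against 560, with 0.481 and 0.507 elsewhere. Epop, a Polycomb-associated protein, had 329 maternal and 4 paternal counts and then 229 and 0. Arsb, a lysosomal sulfatase, had 38 and 1381 and then 31 and 1468, and Abhd14a 9 and 1578 and then 19 and 1411. Rnf31, a subunit of the ligase complex that makes linear ubiquitin chains, had 1 maternal and 262 paternal counts and then 6 and 289.

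**Figure D5:**
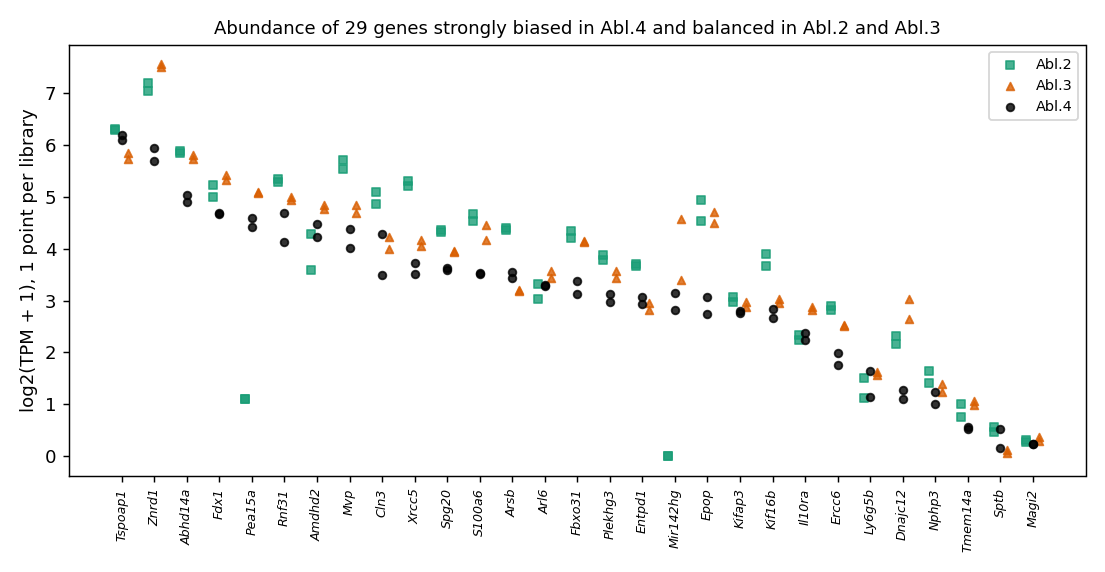
Abundance as log2(TPM + 1) (y axis) of 29 of the 30 genes with a TPM value that were strongly biased in Abl.4 and balanced in Abl.2 and Abl.3, 1 point per library, with Abl.4 in black, Abl.2 in green squares and Abl.3 in orange triangles. For 18 of the 29 genes both Abl.4 points lie below all 4 points of the other lines, and for none do they lie above.

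Abundance in the TPM table was lower in Abl.4 for many of these genes, which were chosen by their allelic shares among genes with at least 20 counts in every library. The TPM of both Abl.4 libraries lay below all 4 libraries of the other lines for 18 of the 30 (60%), against 11.9% of all 8912 genes with TPM, and above all 4 for 0 of 30, against 25.4%. The median difference between Abl.4 and the mean of the other lines was -0.48 on the log2(TPM + 1) scale, where all genes had a median of 0.10; this scale understates the change of low genes. Xrcc5 was at 10.39 and 12.15 TPM in Abl.4, at 36.14 and 38.35 in Abl.2 and at 16.88 and 15.5 in Abl.3. Ercc6 was at 2.37 and 2.96 TPM in Abl.4 and from 4.66 to 6.45 in the other libraries. Epop was at 7.43 and 5.67 TPM against 21.68 to 29.69. Kif16b was at 6.11 and 5.33 TPM against 6.75 to 13.96. Tspoap1 and Arsb were not below: their Abl.4 levels lay between those of Abl.2 and Abl.3. In bulk RNA, fewer cells expressing a gene and less RNA per cell cannot be told apart.

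For genes with the same strong bias in all 3 lines, the shares were nearer the background. Of 146 with TPM, 20 (13.7%) were below and 31 (21.2%) above all libraries of the other lines, with a median difference of 0.12 on the log2(TPM + 1) scale. Promoter CG content was low in this set, with 50 of 103 promoters (48.5%) at a ratio of at least 0.6. Among the genes biased in Abl.4 alone it was 13 of 22 (59.1%). No test was made of the difference between these sets.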

How the data were processed

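RNA-seq of 2 libraries from each of 3 lines was used. The authors deposited allelic read counts per gene, maternal and paternal, for each library. The deposited TPM table gives abundance, and the authors' deposited table of allelic estimates holds fractions with intervals. STAR 2.5.4a, SAMtools, GATK and DESeq2, and the builds GRCm38, mm10 and GRCh37, are named per the submitters' processing notes without roles; how SNP-overlapping reads were counted, and which strain was the mother, are not given in the sources used here.

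The test on the deposited counts was the quasi-likelihood test of edgeR 4.0.16 (R 4.3.3), with all 6 libraries in 1 fit, an intercept per library, which pairs the alleles of a library, an allele effect per line and equal library size for both alleles. P-values were adjusted across autosomal and X genes, and 0.05 was the threshold. The difference between lines was a contrast of allele effects. Shares are means over 2 libraries, with Python 3.11.15 and pandas 2.3.3. Scripts were tested on simulated data. Of 19338 gene positions in the table, 98.0% start where GENCODE vM21 (GRCm38) has them.

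Genes named were the 8 strongly and 4 moderately biased genes per side with the smallest p-values among called genes with at least 100 counts per Abl.4 library and no predicted-gene name, 2 called genes per side of each gene list, all measured imprinted genes and the 2 balanced genes with most counts. Some genes that the rule took are not reported here. Genes named beyond that rule were chosen after their values were seen. Members and lists were chosen with earlier results of these data known. Alternatives were DESeq2 1.42.0, an overdispersed binomial test, other coverage minimums and share limits, another centring or scaling, no pairing, fewer genes and leaving out each Abl.4 library.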

Additional observations from a re-analysis of the deposited data

Results flagged for a closer look

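For the genes given here, the allele ratio differed between Abl.4 and another line by the edgeR test of the difference. Values are log2 allele ratios of Abl.4 minus those of the other line, so a positive value means a higher maternal share in Abl.4. Over all autosomal genes tested, 2029 differed from Abl.2 and 1311 from Abl.3, and both comparisons use the same Abl.4 libraries.

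Among strongly maternal genes, the linker histone gene H1f0 differed by 12.86 from Abl.2 and 7.30 from Abl.3. The coronin gene Coro2a was less maternal in Abl.4 than in either line, by -5.10 and -0.86. Coro2a lies on chromosome 4, where the median share of Abl.2 was 0.998 and 563 of 580 genes differed between Abl.4 and Abl.2. The multicopy histone gene Hist1h2ac was also less maternal in Abl.4 than in either line, by -0.56 and -1.92. Tmem119 lay between the lines, at -0.73 and 1.94.

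Among strongly paternal genes, the pre-B cell marker Enpep differed by 3.42 from Abl.2 and 2.38 from Abl.3, and the ligand gene Wnt10a by 0.62 and 1.87, being slightly less paternal in Abl.4. Ttc3 differed by 2.25 from Abl.2 and -5.07 from Abl.3. S100a11 differed by -6.85 from Abl.3, Plxdc2 by -7.76 from Abl.2 and Serinc3 by 0.30 from Abl.2.

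Among moderately biased genes, Pde2a differed by 1.86 from Abl.2 and 1.63 from Abl.3, Spp1 by -2.85 and -4.38, Cnn3 by -6.79 and -0.95, Adgrg3 by 0.87 and -0.72, and the surrogate light chain gene Vpreb2 by 0.36 and 0.55. Pkig differed by 0.53 from Abl.2 and Slc1a5 by 0.22 from Abl.3. How reads were split between Vpreb2 and its relative Vpreb1 is not known.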

How the results depend on the processing

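The 3528 calls in Abl.4 numbered 3244 to 3608 with DESeq2, the binomial test, TMM factors, the Abl.4 libraries alone, other coverage minimums and a null at the autosomal allele totals. That null turned the larger side: 1705 maternal and 1841 paternal, against 1816 and 1712. Keeping only genes without overlap or a predicted name left 1515 calls among 3676 genes (41.2%), 786 maternal and 729 paternal. The 513 strongly biased genes became 794 at limits of 0.2 and 0.8, 380 at 0.05 and 0.95, and 626 and 395 at coverage minimums of 10 and 50. Leaving out an Abl.4 library, so that the lone library is assumed to vary like those of the other lines, gave 2782 to 2788 calls, 1429 to 1448 maternal and 1340 to 1353 paternal, 536 to 557 strongly biased genes, a median share of 0.50 to 0.502, 1925 to 1953 differences from Abl.2 and 1154 to 1187 from Abl.3. Without chromosomes 4 and 10, in the same fit, 1107 genes differed from Abl.2, and 973 with p-values adjusted anew over the remaining genes. With no replicate block, that is without pairing the alleles of a library, 2723 genes were called (1400 maternal, 1323 paternal), of which 2700 were also among the 3528, and 1732 and 843 genes differed from Abl.2 and Abl.3; the cause was not tested. Of 1176 log2 ratios of 147 named genes, under DESeq2, the binomial test, TMM factors, Abl.4 alone, the totals null, no pairing and without either Abl.4 library, 1141 kept side and call and 35 lost the call, none of them among the 24 biased genes named by rank; none turned. In this count, genes not called in the fit of all 6 libraries, Commd1 among them, kept their call if they stayed uncalled. The percentage of the genes biased in Abl.4 alone with lower TPM was 63.6% (14 of 22) at 100 counts in every library. This alternative was chosen after seeing the data. Depth limits the shares: the median SD between libraries was 0.0662 at 20 to 100 counts and 0.0118 at 2000 or more.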
